A study of Mus musculus with 12 samples.

Results

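The clustered protocadherins are cell surface adhesion proteins encoded by 3 gene arrays that lie side by side on mouse chromosome 18. Their rows in the deposited expression table were taken by symbol, as Pcdha or Pcdhac followed by a number for the alpha cluster, Pcdhb for the beta cluster, and Pcdhga, Pcdhgb or Pcdhgc for the gamma cluster. This gave 58 of the 24421 entries in the table, with 14 in the alpha cluster, 22 in the beta cluster and 22 in the gamma cluster.

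In the alpha and gamma arrays each gene contributes its own large first exon with its own promoter, which encodes the extracellular part. This exon is spliced to a few constant exons that the genes of the array share. The beta genes are single exons without a constant part. Neurons are known to choose a few of the alternate promoters at random, with the help of CTCF and cohesin, so that each cell shows its own combination on its surface and recognises matching cells, whereas the C-type genes at the end of the alpha and gamma arrays (Pcdhac1, Pcdhac2, Pcdhgc3, Pcdhgc4 and Pcdhgc5) are used more uniformly. The gamma genes act in self-avoidance of dendrites, in the survival of neurons and in contacts between astrocytes and neurons, and Pcdhgc3 is known as a prominent isoform of astrocytes.

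RNA was measured in cells sorted by fluorescence from the cerebellum of Aldh1l1-GFP mice of both sexes on a C57/BL6J background, in which the promoter of Aldh1l1, a folate enzyme of astrocytes, drives green fluorescent protein. There were 3 libraries at each of 4 ages, namely postnatal days P1, P7, P14 and P28, all of the same genotype and without any treatment, so each comparison is one of age. The labels do not say that replicates came from separate animals, and p-values here measure only the spread between these samples, which may be technical. The libraries held 6399499 to 14733985 reads on genes, and the 58 protocadherins took 5517 to 15443 of those reads in a library.

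The labelled cell type was checked against marker genes. The summed normalized count of 13 astrocyte and Bergmann glia markers lay between 70616 and 86090.1 at P1, dropped to between 31887 and 60159 at P7, and reached 158370.0 to 201613 at P14 and then 367653 to 431187 in the P28 libraries, and none of the 13 was at 0 in all libraries of an age. Between P1 and P28, 11 of the 13 were called higher and 2 lower (background 13.3% and 18.7% of all genes tested), and Aldh1l1 itself had a mean of 5008 at P1 and 2921 at P28. Other cell types were present in the sorted RNA in amounts that changed with age. The sum of 10 oligodendrocyte lineage markers reached 295601 to 357207 at P14, above the astrocyte sum of the same age, against 7315 to 11417 at P1 and 93436 to 132608 at P28. The sum of 12 neuronal markers was 8897 to 17111 at P1, and gave 24221 to 30215 at P7, then 29551 to 49767 at P14 and 20859.9 to 25520.0 in the oldest libraries. Snap25, a synaptic protein, had a mean of 21594 at P14, and Dcx, of young neurons, went from 1624 at P1 to 84.6 at P28, where 3 of the 12 were higher and 3 lower than at P1. The sum of the 6 interneuron markers was highest at P7, with 2464 to 5351 against 283.5 to 1514 at the other ages. Of these markers, Pvalb alone did not have its highest mean at P7. Its means were 102 at P14 and 85.4 at P28, both above those at P1 and P7. The 7 markers listed for precursors of granule neurons summed to 19490.4 to 27497 at P7 and 905 to 1385 at P28. Most of the P7 sum came from Mki67 and Top2a (means 11544 and 7078), which dividing cells of any type make. At P28 most came from Gli1 (mean 671, against 194 at P1) and Ccnd1 (315), so the sum does not measure these precursors alone. Atoh1, their defining transcription factor, was at 0 in all 3 libraries of P28, as it was at P14. Clustered protocadherins are made by neurons as well as by glia. In sorted bulk RNA, fewer cells of a type and less RNA per cell cannot be told apart, and the part of these cell types in the results below was not tested.

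The alpha array spans 36930285 to 37188897 on chromosome 18 of GRCm38, the build (mm10) on which the reads had been mapped. The beta array follows at 37264998 to 37521419 and the gamma array at 37661775 to 37841873. The shared exons measure 59, 89 and 2712 bp in the alpha array, where 14 genes use them, and 59, 89 and 1971 bp in the gamma array, where 22 genes share the first 2 and 17 are annotated with the last. How reads on shared exons were counted is not given in the sources used here, so levels of alpha and gamma genes may be lower than the amount of transcript, and comparisons of level between arrays carry this limit.

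Of the 58 genes, 45 had at least 1 read in every library. Pcdha4, Pcdha6 and Pcdha7 had 0 reads in all 12 libraries. They are the 3 genes whose own exon is also part of a second gene entry on the same strand in the GENCODE annotation (Gm42416, Gm37013 and Gm37388), and no other member has such an entry. The rows Gm37013, Gm38666 and Pcdha7-g in the table held at most 1 read in a library. Whether the 0 values come from the counting of overlapping entries was not tested, and no level can be given for these 3 genes. Pcdhb1 had 1 read in 1 of 12 libraries. Together with Pcdhac1, these 5 genes did not reach a normalized count of 10 in 3 libraries and were not tested, which left 53 members among 15464 tested genes.

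The gamma cluster gave most of the signal at every age, and its sum was lowest at P7 and highest at P28. The normalized counts of its 22 genes summed to 8415, 8586 and 6893 in the 3 libraries of P1, to 5437, 5520.4 and 5533 at P7, to 6887, 8558 and 7366 at P14, and to 13117, 13191 and 12518 at P28. The libraries of P7 lay below and those of P28 above all libraries of the other ages, whereas P1 and P14 overlapped. The ratio of means was 0.690 for P7 over P1, 1.38 for P14 over P7, 1.70 for P28 over P14 and 1.62 for P28 over P1.

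The beta cluster followed another course. Its 22 genes summed to 889, 942 and 1010.1 at P1, to 1399, 1362 and 1640.2 at P7, to 1391, 1451 and 1292 at P14, and to 1495, 1701 and 1918 at P28. All later libraries were above those of P1, the libraries of P7 and P14 overlapped, and P7 and P28 overlapped as well. The means differed 1.55-fold for P7 over P1 and 1.80-fold for P28 over P1. The beta share of all reads on the members was 10.5% at P1 and went to 20.3% at P7, before 15.1% at P14 and 11.5% by P28 (means of 3 libraries).

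The alpha cluster was the least abundant, and its libraries overlapped between all ages. Its sums were 197, 137 and 227 at P1, 197, 338 and 253 at P7, 139, 165 and 287 at P14, and 275, 175 and 128 at P28. It took 1.30% to 3.63% of the reads on members by the means of each age. These sums are descriptions and carry no test, since the genes were grouped with results of these data known.

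**Figure D1:**
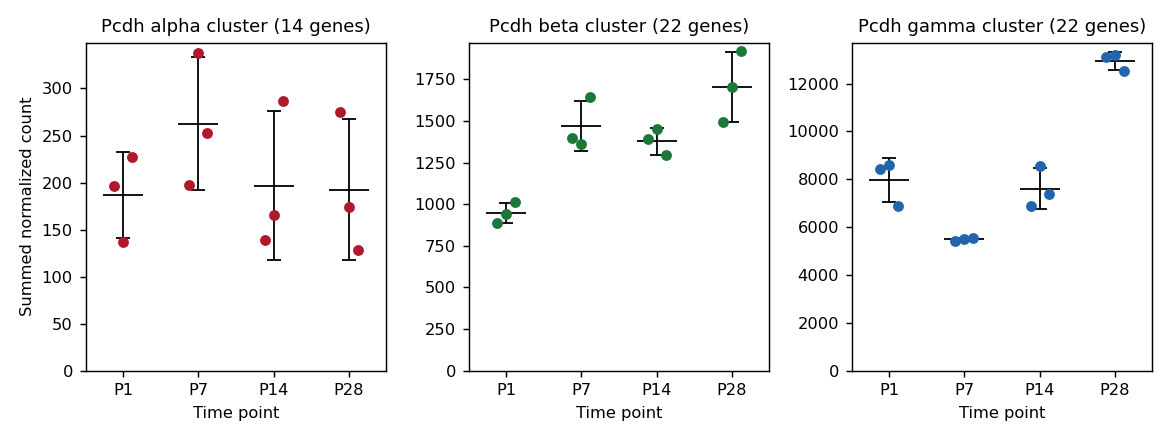
Summed normalized counts (vertical axes, each starting at 0) of the alpha, beta and gamma genes at the 4 time points (horizontal axes). Points are the 3 libraries, the long bar is their mean and the error bar 1 SD; the gamma sums are lowest at P7 (5437 to 5533) and highest at P28 (12518 to 13191), while the alpha sums overlap between all ages.

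Pcdhgc3 alone made up about as much of the gamma cluster as all the other gamma genes together. This C-type gene starts at 37806410 on chromosome 18 and its own exon of 2568 bp is antisense to a part of the entry BC037039, so reads of both could not be separated if strand was not used, which is not given in the sources used here. Its normalized count was 3546, 4209.7 and 3279.6 at P1, 2637, 2076 and 2520.0 at P7, 3308, 4038 and 3117 at P14, and 7070.2, 7483 and 7676 at P28. The 3 libraries of P7 were the lowest and the 3 of P28 the highest, without overlap with any other age. By limma, Pcdhgc3 rose from P14 to P28 (log2 fold change 1.10 ± 0.15 (SE), adjusted p = 7.15e-04) and was higher at P28 than at P1 (1.02 ± 0.15, adjusted p = 1.68e-04). The difference of P7 from P1 was -0.61 ± 0.15 (adjusted p = 0.0253) and that of P14 from P7 was 0.53 ± 0.15 (adjusted p = 0.0237). Both are past the threshold on p but under the log2 fold change of 0.75 that a call also needed. The share of Pcdhgc3 in gamma reads was close at the first ages, with 46.2% ± 3.63 (SD, n = 3) in P1 libraries, 43.9% ± 5.64 at P7 and 45.8% ± 3.09 at P14, and was 57.3% ± 3.74 at P28. Without Pcdhgc3 the other 21 gamma genes summed to 4843 to 6047 at P28, above the 3614 to 4869 of P1, the 2800.3 to 3445 of P7 and the 3579 to 4520.3 of P14, except that the highest P1 library passed the lowest of P28.

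The other C-type gamma genes went in opposite directions between P1 and P28. Pcdhgc5 had normalized counts of 196, 109 and 106 at P1, 78.0, 162 and 153 at P7, 184, 357 and 140.1 at P14, and 367, 714 and 780.3 at P28. The libraries of P28 were above all others. It was higher at P28 than at P1 by 2.16 ± 0.45 in log2 (adjusted p = 0.00203) and than at P14 by 1.49 ± 0.45 (adjusted p = 0.0399). The second of these calls was lost without any 1 of P7 replicate 3, P14 replicate 1, P14 replicate 3, P28 replicate 2 or P28 replicate 3, when the adjusted p for P28 over P14 lay between 0.0545 and 0.149.

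Pcdhgc4, the gamma gene known to be needed for the survival of neurons, had 413, 238 and 232 at P1, 129, 177 and 139 at P7, 68.8, 54.0 and 139 at P14, and 36.5, 123 and 143 at P28. No library of P28 reached the lowest of P1. It was lower at P28 than at P1 (log2 fold change -1.70 ± 0.54, adjusted p = 0.0241), a call lost without P1 replicate 1 (adjusted p = 0.110) or without P28 replicate 1 (0.0737). Its share of gamma reads went from a mean of 3.68% at P1 through 2.69% and 1.17% to 0.784% at P28, while that of Pcdhgc5 went from 1.71% through 2.38% and 2.91% to 4.81%.

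Of the C-type alpha genes, Pcdhac2 gave no call and Pcdhac1 was not tested. Pcdhac2 held 31.5% to 48.4% of the alpha reads by the means of each age. Its normalized counts were 129.8, 50.0 and 96.9 at P1, 74.8, 143 and 92.2 at P7, 27.5, 38.1 and 148 at P14, and 161, 120.3 and 18.9 at P28. The libraries of P28 alone spanned the range of all other ages. Pcdhac1 gave 0 to 16.9 and had 0 reads in all 3 libraries of P28, where a count of 0 allows up to 3 reads, or 3.54 to 4.38 normalized counts, in a library. These limits cover counting error only and not the spread between libraries.

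**Figure D2:**
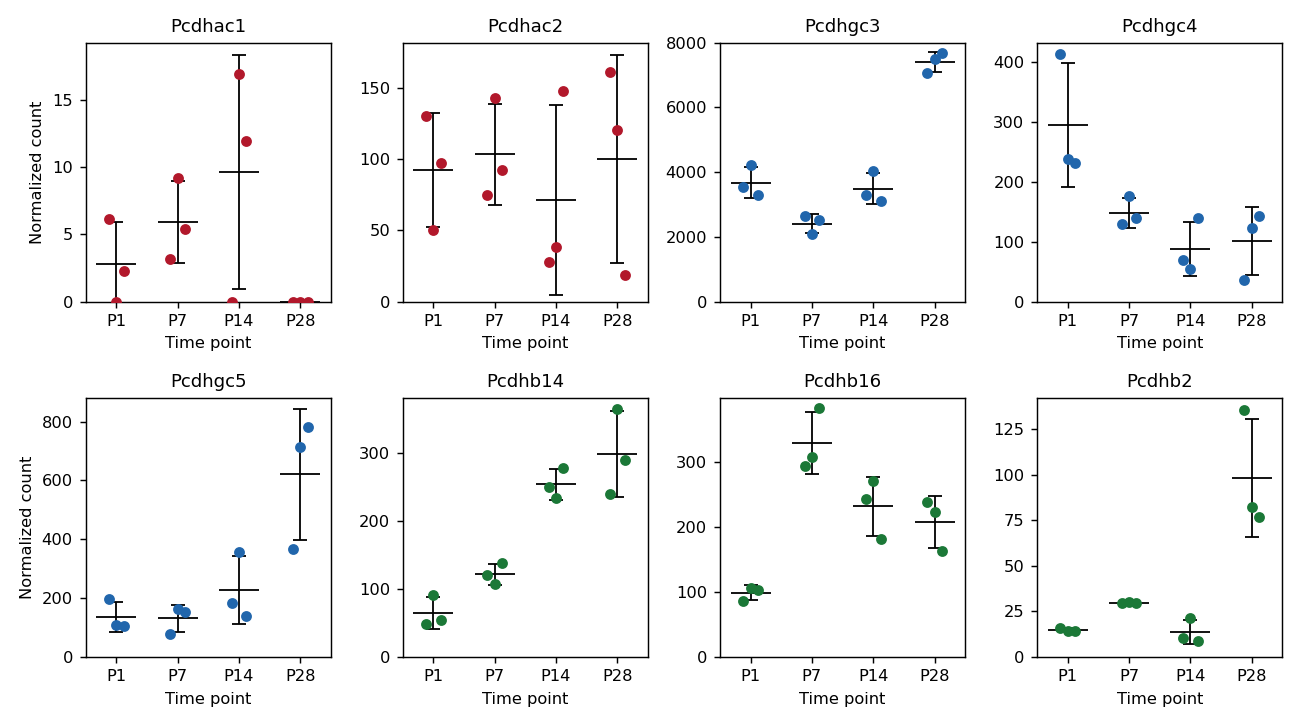
Normalized counts (vertical axes, each starting at 0) of the 5 C-type genes and of 3 beta genes at the 4 time points (horizontal axes). Points are the 3 libraries, the long bar is their mean and the error bar 1 SD; Pcdhgc3 at P28 (7070.2 to 7676) and Pcdhgc5 at P28 (367 to 780.3) lie above all other ages, while Pcdhac2 at P28 spans 18.9 to 161.

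Levels were compared between genes per kilobase of the own exon, taking all reads as lying on it. On this scale Pcdhgc3 had a mean of 1654 normalized counts per kb over the 12 libraries. The next by the same mean were Pcdhga3 with 154, Pcdhga10 with 152, Pcdhga5 with 121 and Pcdhgc5 with 106 normalized counts per kb. The most abundant beta genes were lower, with 53.8 for Pcdhb14 and 41.0 for Pcdhb16, and of the alpha genes Pcdhac2 had 30.3 and Pcdha5 10.9 normalized counts per kb. At P28 the level of Pcdhgc3 was 2885 per kb, against 238 for Pcdhga10 and 237 for Pcdhgc5, whose level had been 52.2 at P1 and 50.1 at P7.

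Of the alternate gamma genes, Pcdhga3 had the highest mean over the 12 libraries (400.1, beside 397 for Pcdhga10, which was above it at P7 and P28). Its normalized counts were 650.3, 509 and 451 at P1, 267, 259 and 229 at P7, 321, 421 and 308 at P14, and 447, 499 and 439.5 at P28. All libraries of P7 were below those of the other ages. It fell from P1 to P7 by 1.08 ± 0.24 on the log2 scale (adjusted p = 0.0110), and this call was lost without P1 replicate 1 (adjusted p = 0.0755) or P7 replicate 3 (0.0597).

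Its neighbour Pcdhga2 had 455, 463 and 332 at P1, 213, 137 and 212 at P7, 201, 170.3 and 195 at P14, and 297, 111 and 226 at P28. Here P1 was the highest age, and the libraries of the later ages overlapped one another. Pcdhga2 was lower at P28 than at P1 (log2 fold change -1.07 ± 0.37, adjusted p = 0.0350), but not without P1 replicate 1 (adjusted p = 0.109), P1 replicate 2 (0.102) or P28 replicate 2 (0.110), and the call was absent in edgeR (0.0609). At P7 against P1 its log2 fold change was -1.16 ± 0.37 with an adjusted p of 0.0737. This became 0.0421 without P28 replicate 1 and 0.0190 without P28 replicate 2, and reached 0.288 at most with another library left out.

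Pcdhga10 had 455, 344 and 327 at P1, 301, 314 and 271 at P7, 275, 232 and 378 at P14, and 643, 715 and 504 at P28. The libraries of P28 were above all others, and the gene rose from P14 to P28 by 1.09 ± 0.26 in log2 (adjusted p = 0.0138), a call lost without P14 replicate 2 (adjusted p = 0.0506). Its own exon is antisense to Gm26672. Against P1 the difference was 0.73 ± 0.26 (adjusted p = 0.0423), just under the fold threshold, and it passed without P1 replicate 1 or P28 replicate 3 (0.87 in both). With each library left out in turn, its adjusted p ranged from 0.0232 to 0.133.

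Pcdhga6 had 52.3, 61.4 and 41.6 at P1, 43.0, 74.6 and 53.5 at P7, 86.8, 55.0 and 128 at P14, and 184, 76.7 and 372 at P28. It was higher at P28 than at P1 by 1.75 ± 0.59 in log2 (adjusted p = 0.0326), although the P28 libraries differed among themselves by more than 4-fold. The call was lost without any 1 of P1 replicate 1, P1 replicate 2, P1 replicate 3, P28 replicate 1 or P28 replicate 3, when the adjusted p lay between 0.0537 and 0.112. Pcdhga5, the next in abundance, had no call, with 298, 356 and 269.6 at P1, 151, 230.3 and 233 at P7, 389.7, 381 and 342 at P14, and 567, 206 and 283 at P28.

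Among the beta genes, Pcdhb16 and Pcdhb14 were the most abundant over the 12 libraries. Pcdhb16 had 85.5, 106 and 103 at P1, 294, 308 and 383 at P7, 243, 269.8 and 181 at P14, and 238, 222 and 162 at P28. It rose from P1 to P7 by 1.72 ± 0.31 in log2 (adjusted p = 0.00343), and no library of P1 reached any later one. At P28 it was 1.06 ± 0.31 above P1 (adjusted p = 0.0175), which was lost without P1 replicate 1 (0.0644).

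Pcdhb14 had 48.6, 91.5 and 54.5 at P1, 120.2, 107 and 138 at P7, 251, 234 and 278 at P14, and 239.7, 366 and 291 at P28. Each age lay above the one before without overlap up to P14, and P14 and P28 overlapped. The difference of P28 from P1 was 2.22 ± 0.36 in log2 (adjusted p = 3.01e-04) and held without each library in turn. The difference of P7 from P1 was 0.95 ± 0.36 with an adjusted p of 0.142. The step from P7 to P14 was 1.06 ± 0.36 with an adjusted p of 0.0497, close to the threshold. This call was lost without any 1 of 8 libraries (P1 replicates 1 and 3, and all replicates of P7 and of P14), with an adjusted p of 0.0526 to 0.155. Both genes together made 17.2% ± 3.29 (SD, n = 3) of beta reads in P1 libraries and a larger part later, with 30.6% ± 1.09 at P7, a maximum of 35.2% ± 0.477 at P14 and 30.0% ± 5.70 at P28. The other 20 beta genes had sums of 744 to 853 in P1 libraries and of 948 to 1119 at P7, then 833 to 948 at P14 and 1017 to 1465 at P28.

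Pcdhb2 stood out for its late step. It had 16.0, 14.3 and 14.4 at P1, 29.5, 30.1 and 29.5 at P7, 10.6, 21.2 and 8.69 at P14, and 136, 82.6 and 77.1 at P28. All libraries of P28 were above those of any other age. The gene rose from P14 to P28 by 2.83 ± 0.62 in log2 (adjusted p = 0.00871) and was 2.60 ± 0.62 above P1 (adjusted p = 0.00491). The call against P14 was lost in a fit of only the 6 libraries compared (adjusted p = 0.0888). At P14 the level rested on 10, 20 and 8 reads. Pcdhb13, which lies directly before Pcdhb14, had 19.1, 38.6 and 26.5 at P1, 28.7, 51.0 and 50.4 at P7, 82.6, 37.0 and 41.3 at P14, and 84.8, 151 and 100.1 at P28. Its difference of P28 from P1 was 1.97 ± 0.58 in log2 (adjusted p = 0.0165), and it was lost without P1 replicate 1 (0.0709).

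The remaining abundant beta genes had no call. Pcdhb7 had 83.7, 70.0 and 144 at P1, 79.6, 83.8 and 118 at P7, 133, 67.7 and 17.4 at P14, and 213, 33.0 and 335 at P28. Pcdhb17 had 92.3, 39.3 and 84.8 at P1, 128, 135 and 149.6 at P7, 89.0, 212 and 121 at P14, and 92.1, 119 and 48.7 at P28. In both genes the libraries of P28 overlapped those of P1.

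No alternate alpha gene was called in any comparison. After Pcdhac2 the most abundant were Pcdha5, Pcdha11 and Pcdha12. Pcdha5 had 20.9, 28.6 and 28.8 at P1, 23.1, 24.9 and 19.4 at P7, 41.3, 7.41 and 11.9 at P14, and 74.5, 0 and 25.7 at P28. Pcdha11 had 3.08, 4.29 and 12.1 at P1, 20.7, 35.3 and 31.8 at P7, 24.4, 9.52 and 42.4 at P14, and 19.0, 2.36 and 2.70 at P28. Its libraries of P1 and P7 did not overlap, and the difference of 2.17 ± 0.89 in log2 had an adjusted p of 0.182. Pcdha12 had 4.31, 9.29 and 11.4 at P1, 11.1, 41.9 and 25.6 at P7, 11.6, 2.12 and 8.69 at P14, and 0, 1.18 and 27.0 at P28. Between 6 and 8 of the 14 alpha genes had a read in a library of P28, and 3 had one in all 3 of them, against 10, 11 and 9 in all 3 libraries of P1, P7 and P14.

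**Figure D3:**
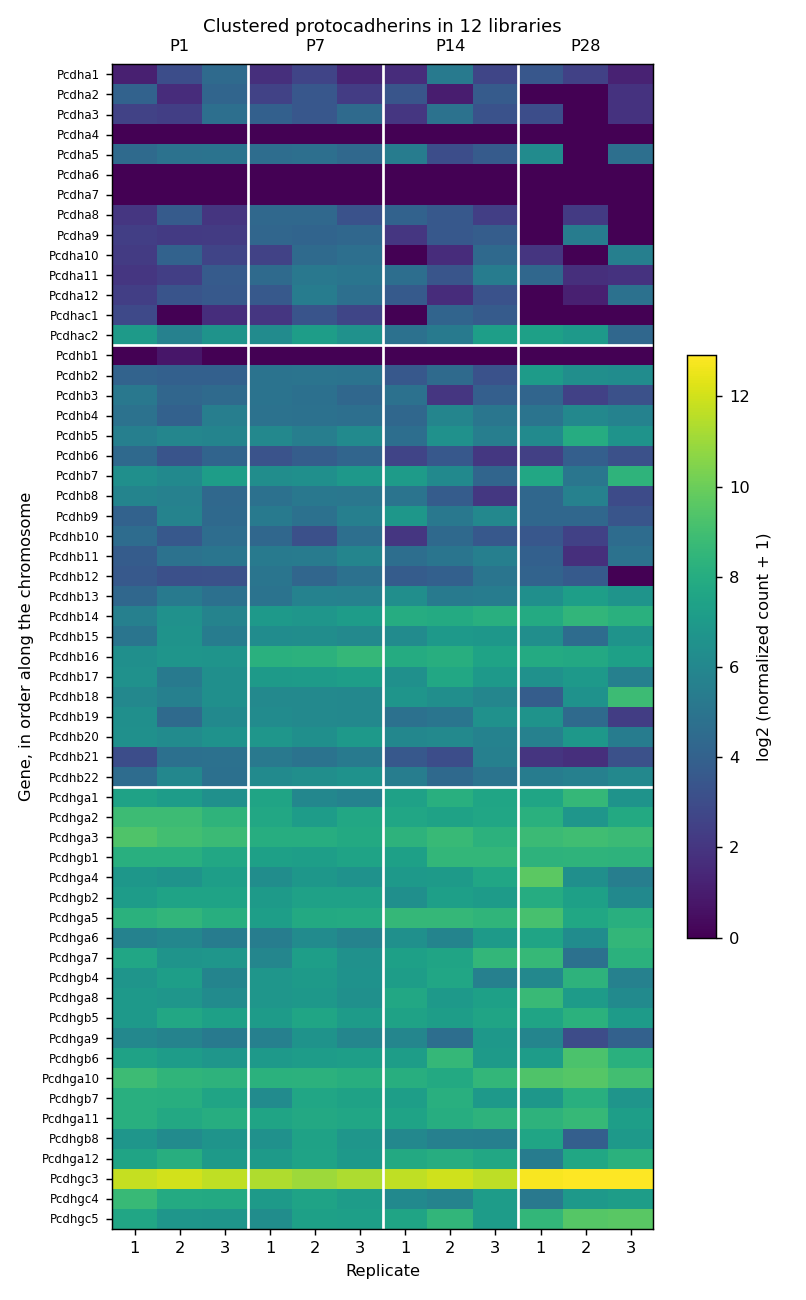
Level of the 58 genes (rows, in order along the chromosome, white lines between the arrays) in the 12 libraries (columns, 3 replicates per time point). The colour gives log2 of the normalized count plus 1; Pcdhgc3 is the brightest row in every library and Pcdha4, Pcdha6 and Pcdha7 are at 0 throughout.

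Over the whole family few genes passed the test, and the share called in either direction was below that of all genes in each comparison. A call needed an adjusted p under 0.05 and a log2 fold change of over 0.75 either way. From P1 to P7, 2 of 53 members were called (3.77%, background 7.01% of all 15464 genes), with 1 higher (background 3.10%) and 1 lower (background 3.91%). At an unadjusted p with the same fold the members called were 6 (background 14.2%). From P7 to P14, 1 member was called (1.89%, background 18.8%), which was higher (background 10.0% higher and 8.79% lower), and 5 were at an unadjusted p (background 26.2%). From P14 to P28, 4 were called (7.55%, background 13.1%), all of them higher (background 4.58% higher and 8.53% lower), and 7 at an unadjusted p (background 24.1%).

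Between P1 and P28, 9 members were called (17.0%, background 32.0%). The 7 that were higher made 13.2% of the members, which is close to the 13.3% of all genes, and 2 were lower (background 18.7%). The unadjusted p gave 11 (background 39.3%). The 4 comparisons share libraries, and 11 members were called in at least 1 of them. The median log2 fold change of the members was 0.03, -0.07, 0.05 and -0.20 in the order given here, beside 0.04, -0.09, -0.12 and -0.24 over all genes tested. In edgeR the medians of the members were 0.0047, 0.03, 0.21 and 0.27, beside 0.03, 0.01, -0.02 and -0.04 over all genes tested. The sign of the members' median thus turned with the tool for P14 against P7 and for P28 against P1.

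The direction of these counts depended on scaling. With library totals alone in place of the authors' size factors, the median of all genes moved to 0.10, -0.34, -0.35 and -0.66, so that all differences shifted downward at the later steps. The members called were then 1 higher and 1 lower from P1 to P7, 0 and 1 at the next step, 3 and 1 at the last step, and 4 and 4 between P1 and P28. Under this scaling the difference of Pcdhgc3 between P28 and P1 was 0.58 (adjusted p = 0.00532), under the fold threshold, Pcdhb16 (0.62, adjusted p = 0.129) and Pcdhga6 (1.32, 0.0823) lost their calls, and Pcdha2 (-2.88, 0.0312) and Pcdhb21 (-2.27, 0.0423) were called lower. Relative to the median of all genes in the same scaling, Pcdhgc3 was above it in P28 against P1 under both.

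By array, the signs of the differences were uneven. From P1 to P7, 17 of 22 gamma genes were lower and 17 of 21 tested beta genes higher, with medians of -0.34 and 0.50 in log2, and with TMM scaling, library totals, edgeR or DESeq2 there were 16 or 17 gamma genes lower and 14 to 18 beta genes higher. From P7 to P14, a comparison that shares the P7 libraries with opposite sign, 17 of 22 gamma genes were higher (median 0.47) and 15 of 21 beta genes lower (median -0.51), and under the same alternatives 14 to 18 gamma genes were higher and 14 or 15 beta genes lower. For P28 against P14 and against P1, 14 of 22 gamma genes were higher in each (medians 0.11 and 0.15). With TMM scaling 13 and 14 were higher, and with edgeR or DESeq2 18 and 15. With library totals 7 of 22 were higher in each (medians -0.12 and -0.28, beside -0.35 and -0.66 over all genes). In P28 against P1 all 10 tested alpha genes had a negative difference, with a median of -0.78 and none called, but on recovered reads 6 of the 10 were positive in edgeR (median 0.17) and in DESeq2 (median 0.15). These counts take every sign regardless of size, and genes of 1 array were measured in the same libraries, so they are descriptions.

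**Figure D4:**
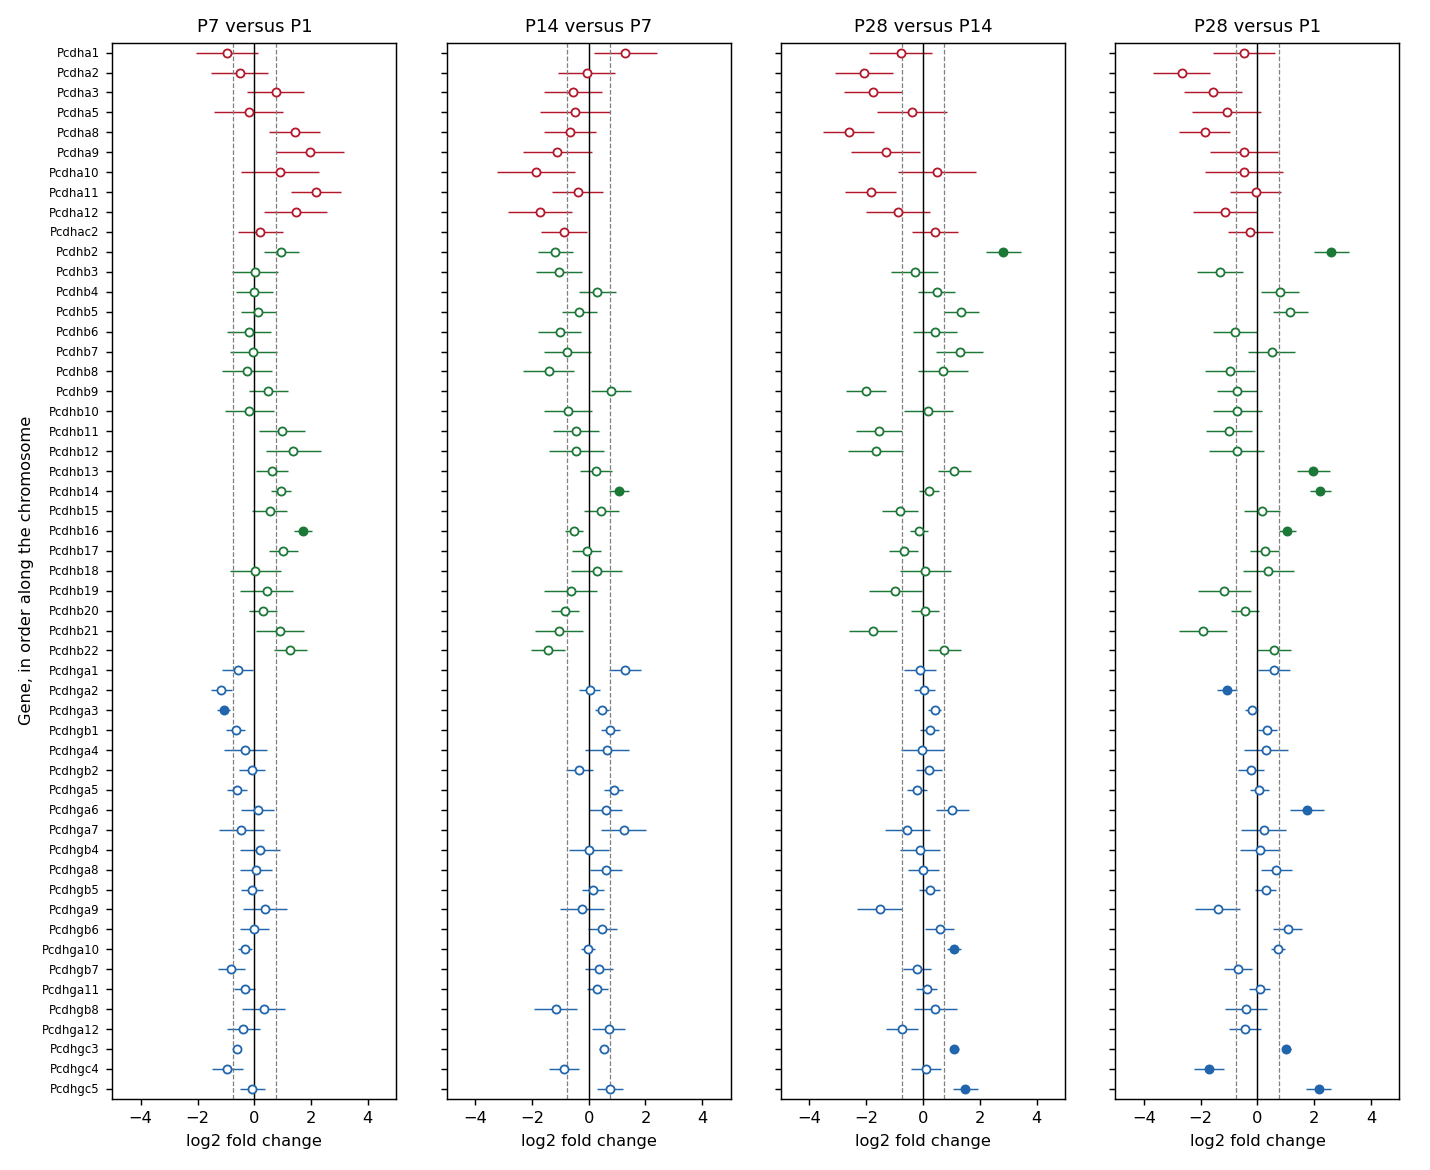
Log2 fold change with its standard error (horizontal axes) of the 53 tested genes (vertical axis, in order along the chromosome) in the 4 comparisons, from limma. Red, green and blue are the alpha, beta and gamma genes, filled points were called and dashed lines mark the fold threshold of 0.75; 9 genes are filled in P28 versus P1 and 1 in P14 versus P7.

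The spread between replicates was widest at P28 by its median, though not in every gene. The SD of log2 values was largest at P28 in 34 of the 53 members, at P14 in 14 and at P1 in 5, a count that was not made over all genes. The median SD of log2 values over the 53 members was smallest at P7 with 0.287, stood at 0.479 at P1 and 0.667 at P14, and came to 1.06 at P28. Over all genes tested it was 0.250 at P7, 0.341 at P1, 0.419 at P14 and 0.665 at P28. In order of age, the members with an SD over 1 numbered 4, 1, 15 and 28, where 9.97%, 5.86%, 17.7% and 33.9% of all genes had such an SD. Members were less abundant than the typical gene, with a median normalized count of 101 at P28 against 191 over all genes, and how far this difference in level accounts for the spread was not tested. Pcdhgc3 had an SD of 0.061 at P28, below its own SD at each earlier age, as were those of Pcdhgb1 (0.046), Pcdhga3 (0.099) and Pcdhb13 (0.425). Pcdhgb1 was chosen after its values were seen.

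Single genes show the size of this spread in reads. At P28, Pcdhga4 had 547, 71 and 33 reads in the 3 libraries, Pcdhga7 had 273, 23 and 227, and Pcdhgb6 had 94, 508 and 217. Of the beta genes, Pcdhb18 had 9, 81 and 335 reads, and of the alpha genes Pcdha9 had 0, 36 and 0. These 5 genes were chosen after their values were seen. Different libraries were the highest in different genes, as replicate 1 was the highest in 19 members, replicate 2 in 19 and replicate 3 in 15. Among the 19 gamma A and B genes, the highest of the 3 libraries exceeded the lowest by over 4-fold in 9 genes at P28, in 2 at P14 and in none at P1 or P7. Such ratios were not counted over all genes. The median ratio of highest to lowest was 3.92 at P28 and 1.52, 1.43 and 1.77 at P1, P7 and P14, with median reads per gene and library of 160.3, 234, 154 and 177. The sum of these 19 genes at P28 was 5644, 4872 and 3919. P28 replicates 1, 2 and 3 held 7965152, 10269334 and 9337259 reads on genes.

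**Figure D5:**
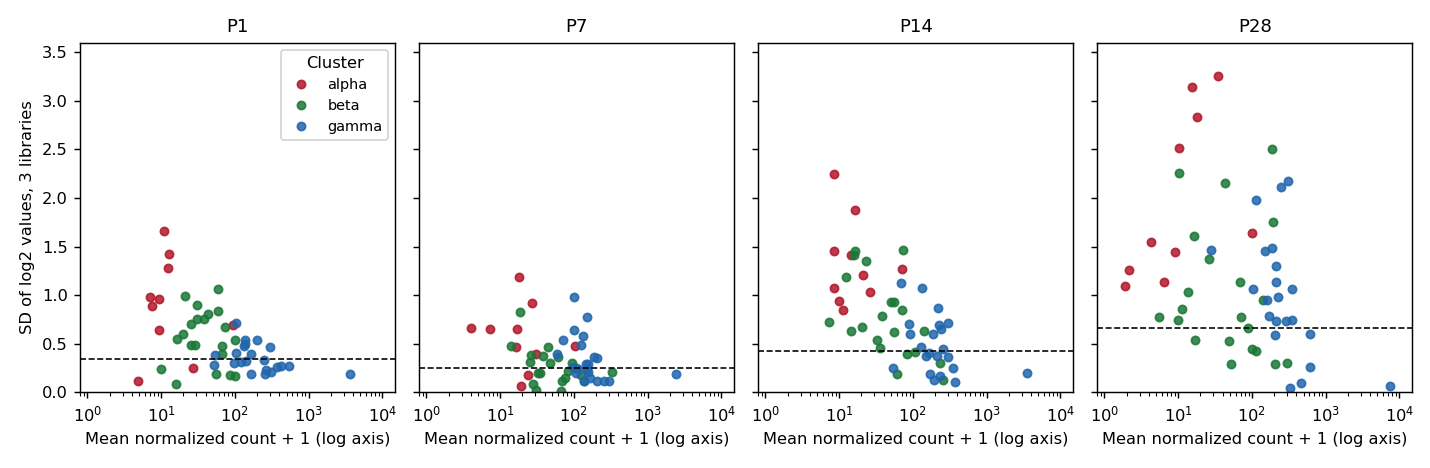
SD of log2 values over the 3 libraries of a time point (vertical axis) against the mean normalized count plus 1 (horizontal axis, logarithmic) for the 53 tested genes, 1 panel per time point. Red, green and blue are the alpha, beta and gamma genes and the dashed line is the median SD of all genes tested, 0.250 at P7 and 0.665 at P28; Pcdhgc3 is the blue point at the far right, at 0.061 at P28.

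Proteins that act with the clustered protocadherins were followed through a list of 20 genes for cell surface processing, kinases, the WAVE actin complex and Wnt signalling. None was called in the first 2 steps of age. From P14 to P28, 2 were higher (background 4.58%) and 1 lower (8.53%), and between P1 and P28, 4 were higher (13.3%) and 1 lower (18.7%), with list medians of 0.28 and 0.55 in log2. The most abundant were the kinase Wnk1, which had no call, and Nckap1, a subunit of the WAVE complex, with a mean of 4393 ± 443 (SD, n = 3) at P1 and 7689 ± 588 at P28 (0.81 ± 0.13, adjusted p = 2.90e-04). Among called genes, the largest differences were those of Fzd5, a Wnt receptor, which had 155 ± 25.5 at P1 and 48.7 ± 54.1 at P28 (-2.21 ± 0.70, adjusted p = 0.0241), and of Pdcd10 with 127 ± 20.3 and 293 ± 50.0 (adjusted p = 0.0108).

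Regulators of promoter choice and chromatin formed a list of 28 symbols, of which 26 were in the table and tested. Of these, 1 was lower from P1 to P7 (background 3.91%), 13 were lower from P7 to P14 (8.79%), none was called at the step to P28 and 6 were lower between P1 and P28 (18.7%), while none was higher. The medians were 0.35, -0.80, -0.13 and -0.63. The most abundant, Nipbl (the cohesin loader) and Dnmt3a (a DNA methyltransferase), had no call. Ezh2, the catalytic subunit of Polycomb complex PRC2, fell from 1087 ± 75.4 at P7 to 207 ± 8.54 at P14 (-2.38 ± 0.31, adjusted p = 8.28e-05), and Dnmt3b from a mean of 151 to 40.2 (-1.90 ± 0.56, adjusted p = 0.0257). Several of these genes are also made in dividing cells. The proliferation markers Mki67 and Top2a had means of 11544 and 7078 at P7 and of 394 and 317 at P14, and their part in the change was not tested.

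The protocadherins outside the clusters are single genes on several chromosomes, and many of them act in homophilic adhesion as well. Of 13 genes in the table, 3 were lower from P1 to P7 (background 3.91%) and 4 higher from P7 to P14 (10.0%). At the last step 2 were higher (4.58%) and 3 lower (8.53%), and between P1 and P28, 2 were higher (13.3%) and 6 lower (18.7%). Their medians were -0.60, 0.26, -0.45 and -0.14. Pcdh9, the most abundant, had a mean of 2786 ± 360 (SD, n = 3) at P7 and 10453 ± 1415 at P14 (1.91 ± 0.17, adjusted p = 2.87e-06). Pcdh10 went from 4556 ± 142 at P1 to 1405 ± 379.8 at P7 (-1.73 ± 0.18, adjusted p = 8.13e-05) and was higher again at P14 and at P28. Among called genes, the largest differences between P1 and P28 were in Pcdh15, with means of 790.4 ± 141 and 11.8 ± 9.94 (-6.30 ± 0.56, adjusted p = 1.34e-06), and in Pcdh8, with 106 ± 32.1 and 2.85 ± 2.93 (-5.13 ± 0.79, adjusted p = 2.04e-04). Pcdh15 and Pcdh9 are also expressed in the oligodendrocyte lineage, whose markers are given above. The rates of calls in the 2 families were not tested against each other.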

How the data were processed

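Cells positive for GFP were sorted from the cerebellum, and RNA was amplified from 10 ng with the Trio RNA-Seq system and sequenced in pairs. The authors mapped reads to mm10 with STAR 2.5.0a, counted them over UCSC transcripts with GenomicAlignments and normalized them with DESeq2, for which the submitters' processing notes give version 1.30.1 and the study's methods another. The deposited signal is a count divided by 1 size factor per library. Dividing by the smallest step of each library returned whole reads for 100% of values (tolerance 0.001). All 12 columns were used and 0 columns were left out. Every column name carries P28, so ages rest on the labels.

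Values were tested as log2 (normalized count + 1) with limma 3.58.1 (R 4.3.3) in 1 fit of 12 libraries, for the 15464 genes that reached 10 in 3 or more libraries, with Benjamini-Hochberg adjustment over all of them. The log2 fold changes are on this scale and understate changes of low genes. On the recovered reads, edgeR 4.0.16 (quasi-likelihood, TMM) called 1008, 2761, 1815 and 4567 genes for P7 versus P1, P14 versus P7, P28 versus P14 and P28 versus P1, where limma called 1084, 2908, 2027 and 4948. DESeq2 1.42.0 was another alternative, as were other scalings, pseudocounts and filters, a replicate block and leaving out each library. Each test was tested on simulated data. The simulation gave all ages the same dispersion and placed changes at P7 only, so it does not cover the wider spread at P28.

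The genes named were the C-type members, the 4 most abundant members of each array, every called member, and in each list the 2 most abundant and the 2 with the largest called change. In marker lists sums are given instead. Other genes named were chosen after their values were seen. The members and lists were chosen with earlier results of these data known. No pair of replicates agreed within sampling noise (chi-square per degree of freedom 8.46 to 65.4). Own exons of alpha and gamma genes come from the GENCODE annotation of GRCm38, and the beta gene spans from RefSeq. No sequences are printed.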

Additional observations from a re-analysis of the deposited data

How the results depend on the processing

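The direction of the 16 calls of members was the same under all alternatives in which the gene could be tested. The calls of Pcdhb16 at P7 versus P1, of Pcdhgc3 at P28 versus P14, and of Pcdhb14, Pcdhgc5 and Pcdhb2 at P28 versus P1 passed in all of them. Counts of members called moved as follows. For P7 versus P1 (2 called) it was 6 with only the 6 libraries compared and 6 at an unadjusted p, and 1 to 3 when each library was left out. For P14 versus P7 (1 called) it was 2 with DESeq2, 2 with a value of at least 10 in every library, 3 with only the 6 libraries compared, 5 at an unadjusted p, 2 without a fold change threshold, and 0 to 2 with each library left out. For P28 versus P14 (4 called) it was 1 with only the 6 libraries compared, 7 at an unadjusted p and 3 to 7 with each library left out, the 7 without P28 replicate 2. For P28 versus P1 (9 called) it was 4 with only the 6 libraries compared and 5 to 11 with each library left out, the 5 without P1 replicate 1. A fit of the 6 libraries compared holds fewer samples and takes its spread from those ages alone. The main fit shares 1 spread per gene over all ages. Over all genes the fits of 6 libraries called 2300, 3953, 736 and 3514 in the order given here, against 1084, 2908, 2027 and 4948. The median SD over all genes was 0.250 at P7 and 0.665 at P28. In the main fit, SE and p of comparisons with P28 thus rest in part on the narrower spread of earlier ages. The cause of these shifts was not tested.

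The log2 ratios of cluster sums moved with library totals alone. The beta cluster gave -0.35 for P14 versus P7 (against -0.09), 0.066 for P28 versus P14 (against 0.31) and 0.41 for P28 versus P1 (against 0.85). The gamma cluster gave 0.21 (against 0.47), 0.53 (against 0.77) and 0.27 (against 0.70) for the same comparisons. With each library left out, the alpha cluster ranged from -0.38 to 0.34 for P28 versus P14 and from -0.30 to 0.26 for P28 versus P1, changing sign in both.

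The labels do not say whether equal replicate numbers mean paired samples. Deviations of same-numbered libraries correlated by -0.029 to 0.139, and those of libraries with different numbers by -0.105 to 0.054. Correlations this small cannot decide whether samples were paired or shared a batch. With a replicate block the members called were 2, 0, 4 and 10 in the order of the comparisons above, so that Pcdhb14 at P14 versus P7 passed no longer (adjusted p = 0.0655).

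Counting limits the alpha genes most, with a median of 5.67 reads per gene and library at P28, and shared exons limit levels in the alpha and gamma arrays.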
